A study of Mus musculus with 2 samples.

Results

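The genes described here are 9 synaptic adhesion genes (Nrxn3, Nlgn1, Nlgn2, Csmd1, Tenm3, Tenm4, Cdh4, Pcdh7 and Pcdh9) in nuclei of fetal mouse lung. They are 9 of the 32285 genes in the expression matrices. They were selected on their RNA levels in these same nuclei, because Nrxn3, Nlgn1 and Csmd1 were among the leading genes of a stromal cluster, so their higher levels in stroma are a description and carry no test. The study asked how asthma in the mother changes the lung of the offspring. Wild-type C57BL/6J dams of 6 to 8 weeks received 25 µL of alum at days -21 and -7 before mating, alone in the PBS group or with 100 µg of ovalbumin (OVA) in the OVA group. During gestation, from day 4 until day 17, the PBS group inhaled PBS and the OVA group 500 µg of OVA every few days. Fetal lungs were taken at day 18 of gestation.

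Each group was 1 library of single nuclei, in which RNA and open chromatin were read from the same nucleus. The PBS library pooled 9 fetuses and the OVA library 8 fetuses, from 1 dam each, so a difference between the libraries cannot be told apart from a difference between those 2 dams or preparations. Sorted ILC2s (group 2 innate lymphoid cells), CD45+ leukocytes and EpCAM+ epithelial cells were the starting cells for the nuclei, per the labels. Stromal cells were in none of these sorts, so their number here is not their share of the lung. The PBS library held 8019 barcodes with 11473351 RNA molecules (unique molecular identifiers, UMIs), and the OVA library 5960 barcodes with 13774959 UMIs. After filtering and removal of simulated-doublet calls, 4279 and 4996 nuclei were kept, with a median of 1115 and 1820.5 UMIs. Mitochondrial genes took 37.4% and 27.7% of the UMIs of the PBS and OVA libraries, so levels are given as CPM, the UMIs of a gene scaled to a total of 1000000 UMIs of nuclear genes. The libraries shared 54 barcodes, 30 of them among the kept nuclei.

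Synapses are held together by adhesion proteins that meet across the cleft. Neurexins such as Nrxn3 sit mainly on the presynaptic side and bind neuroligins such as Nlgn1 and Nlgn2 on the postsynaptic side. Teneurins (Tenm3, Tenm4) bind latrophilins, Cdh4 is a classical cadherin, Pcdh7 and Pcdh9 are protocadherins, and Csmd1 is a large membrane protein with complement-control domains. Myofibroblasts of the developing lung lie at the tips of the growing alveolar septa and lay down elastin. Smooth muscle wraps airways and vessels, pericytes cover capillaries, and alveolar fibroblasts fill the septa.

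Nuclei were assigned to types by marker genes that exclude the 9 members. This gave 901 stromal nuclei of the PBS and 1311 of the OVA library, against 1492 and 1946 nuclei of other types, and 1885 and 1739 nuclei passed no gate. The stromal nuclei were 464 and 774 alveolar fibroblast-gated, 243 and 264 myofibroblast-gated, 83 and 109 smooth muscle-gated, 96 and 140 pericyte-gated and 15 and 24 adventitial fibroblast-gated nuclei. Pan-stromal genes such as Col1a1 and Col3a1, which encode fibrillar collagens, summed to 3539 to 5909 CPM in the 4 larger stromal gates of the PBS library and to 508 CPM in its non-stromal nuclei. In the OVA library the same sums were 3142 to 5618 CPM and 317 CPM. Neuron and glia markers summed to 9.63 and 8.46 CPM in all stromal nuclei of the PBS and OVA libraries, and in the myofibroblast gate 1 of the 9 markers was detected. In that gate Sox10, Elavl4, Stmn2, Prph and Snap25 had no UMI in either library. Neuron or glia was itself a gate, passed by 1 PBS and 2 OVA nuclei. The low level of its markers in stromal gates was therefore partly fixed in advance by the gating.

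Clustering without the 9 genes divided the gates further. A cluster of 454 PBS and 386 OVA nuclei, cluster 12, held 419 of the 507 myofibroblast-gated and 115 of the 192 smooth muscle-gated nuclei, and it was left unnamed because it matched the markers of both types. Its leading genes beside members were Rgs6, Enpp2, Zfp536 and Lgr6. Cluster 18, led by Ctnna3, Gpc6 and Ntrk3, was smooth muscle-like and held 60 of the smooth muscle-gated nuclei. Cluster 16 was pericyte-like, with 192 of the 236 pericyte-gated nuclei, and cluster 10, led by Abca8a and Ptn, was adventitial fibroblast-like by 3 markers. That name is loose, since cluster 10 held 25 adventitial fibroblast-gated, 42 alveolar fibroblast-gated and 23 myofibroblast-gated nuclei and 194 without a gate. The smooth muscle gate was therefore a mixture of nuclei of clusters 12 and 18. Levels by gate are ranked below over the 10 gates of at least 50 nuclei in each library, which leaves out adventitial fibroblast, endothelial, neutrophil and other small gates.

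All members but Nlgn2 are among the longest genes of the mouse genome. In the GENCODE annotation of GRCm38, the build of the deposited peaks, Csmd1 (chromosome 8, 15892537 to 17535586, minus strand) spans 1643 kb. Nrxn3 (chromosome 12, 88722876 to 90334935, plus strand) spans 1612 kb. The other 6 long members span 415 to 906 kb, and Nlgn2 (chromosome 11, 69823122 to 69837784, minus strand) spans 14.7 kb. Introns make up 97.2% to 99.2% of the 8 long genes and 60.5% of Nlgn2. Nuclear RNA holds unspliced transcripts, in which primers can also bind within introns, so a long gene can gather more UMIs than a short gene at the same number of transcripts. Annotated genes overlap all members but Nlgn2, and 14 of them overlap Pcdh7 on its own strand, so UMIs near those genes are uncertain in their assignment.

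The sequences around the transcript starts differed between members in the number of CG pairs. RefSeq promoters of 300 bases (GRCm38.p6, from 250 bases before the start to 50 after it) matched 7 of the 9 members with 12 promoters, and those of Csmd1 and Cdh4 were not analysed here. The median of all 32851 promoters of this length was 7 CG pairs, with quartiles of 3 and 20, and 94.6% held at least 1. The following promoters are shown because the accessibility described further on turns on them, with CG pairs in capitals.
Nrxn3 promoter 1: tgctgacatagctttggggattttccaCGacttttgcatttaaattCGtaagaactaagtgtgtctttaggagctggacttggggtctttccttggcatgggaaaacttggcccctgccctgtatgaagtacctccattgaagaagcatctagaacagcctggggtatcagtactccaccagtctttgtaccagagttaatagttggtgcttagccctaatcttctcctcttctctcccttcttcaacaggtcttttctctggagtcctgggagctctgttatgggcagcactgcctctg
Nrxn3 promoter 3: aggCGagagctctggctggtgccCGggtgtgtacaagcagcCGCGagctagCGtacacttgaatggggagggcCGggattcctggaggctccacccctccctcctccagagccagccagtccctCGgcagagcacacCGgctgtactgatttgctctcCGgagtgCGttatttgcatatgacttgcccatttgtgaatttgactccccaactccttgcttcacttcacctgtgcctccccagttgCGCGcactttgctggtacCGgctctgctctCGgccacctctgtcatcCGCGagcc
Nlgn1 promoter 1: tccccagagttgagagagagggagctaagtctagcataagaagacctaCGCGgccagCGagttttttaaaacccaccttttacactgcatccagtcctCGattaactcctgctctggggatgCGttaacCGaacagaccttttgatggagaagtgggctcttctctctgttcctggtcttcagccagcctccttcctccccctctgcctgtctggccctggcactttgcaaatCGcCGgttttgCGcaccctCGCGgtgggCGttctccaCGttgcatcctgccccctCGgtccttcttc
Nlgn1 promoter 2: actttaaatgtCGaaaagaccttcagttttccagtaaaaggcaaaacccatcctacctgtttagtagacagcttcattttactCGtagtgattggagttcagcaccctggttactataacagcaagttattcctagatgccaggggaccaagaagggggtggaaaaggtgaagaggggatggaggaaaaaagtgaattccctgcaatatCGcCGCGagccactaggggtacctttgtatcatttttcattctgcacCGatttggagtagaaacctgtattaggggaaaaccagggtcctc
Pcdh9 promoter 1: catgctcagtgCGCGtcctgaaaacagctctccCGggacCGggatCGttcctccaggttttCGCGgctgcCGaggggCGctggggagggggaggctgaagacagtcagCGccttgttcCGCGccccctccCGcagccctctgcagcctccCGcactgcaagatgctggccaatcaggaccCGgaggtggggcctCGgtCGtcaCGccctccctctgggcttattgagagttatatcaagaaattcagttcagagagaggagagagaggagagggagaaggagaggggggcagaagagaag

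The first Nrxn3 promoter (chr12:88794254-88794553, plus strand) held 2 CG pairs and lay in no peak of either library. The third (chr12:89812233-89812532, plus strand) held 16 CG pairs and lay wholly within a peak in both libraries. For Nlgn1, the first promoter (chr3:26331860-26332159, minus strand) held 14 CG pairs and the second (chr3:26153937-26154236, minus strand) 6, and both lay in peaks, the first with 199 and 210 of its bases in the PBS and OVA libraries. The first Pcdh9 promoter (chr14:93890630-93890929, minus strand) held 18 CG pairs and lay wholly within a peak. On either strand, none of these 5 promoters held GGGCGG (the GC box, found in 35.7% of all promoters), TATAAA (13.6%), CAGCTG (an E-box, 16.3%), CATTCC (the MCAT element, 14.7%) or a CArG box (1.63%), which says only that these letters are not in these windows.

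Nrxn3 was by far the most counted member, with 8412 UMIs over all kept nuclei, and it was highest in myofibroblast-gated nuclei. Its level there was 7643 CPM (95% counting interval 7289 to 8009, 1753 UMIs) for PBS and 6702 CPM (6449 to 6963, 2636 UMIs) for OVA, the order in which paired values are given from here on. Smooth muscle-gated nuclei followed with 3872 CPM (3510 to 4262) and 3593 CPM (3334 to 3868). The interval of the ratio of these neighbours in the order lay above 0 on the log2 scale in both libraries, at 0.98 (0.83 to 1.14) and 0.90 (0.78 to 1.02). Pericyte-gated nuclei came next, with 376 CPM (269 to 513) and 1351 CPM (1205 to 1510), and the alveolar fibroblast gate was far below with 31.8 CPM (17.8 to 52.4) and 16.8 CPM (11.1 to 24.4). All intervals cover counting error only, since each group had 1 library.

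Among the 6 non-stromal gates ranked, Nrxn3 was lowest in macrophages of the PBS library (13.2 CPM, 3 UMIs) and in monocytes of the OVA library (4.84 CPM, 1 UMI). In the gates with its highest non-stromal levels, most UMIs came from few nuclei. In ILC2-gated nuclei of the PBS library it reached 269 CPM (199 to 354), and 38 of those 50 UMIs lay in 3 of the 313 nuclei. In mast cell or basophil-gated nuclei of the OVA library it reached 547 CPM (413 to 711), and all 56 UMIs lay in 1 nucleus, which clustering placed in cluster 12. Nrxn3 was also found in types too small to be ranked. The endothelial-like cluster 5 (25 and 35 nuclei) had 133 and 173 CPM from 38 and 100 UMIs, and the neutrophil-like cluster 21 (20 and 57 nuclei) had 1474 and 306 CPM from 16 and 10 UMIs.

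The other neurexin-neuroligin genes split. Nlgn1, a postsynaptic partner of neurexins, was high in the same gates as Nrxn3: 868 CPM (751 to 997, 199 UMIs) and 862 CPM (773 to 959, 339 UMIs) in myofibroblast-gated nuclei and 1204 CPM (1006 to 1430) and 791 CPM (671 to 925) in smooth muscle-gated nuclei. The smooth muscle level was the higher of these neighbours in the PBS library (log2 ratio 0.47, 0.14 to 0.80), while in the OVA library their order was not resolved (0.12 toward myofibroblast, -0.15 to 0.41). Few nuclei weighed on that PBS level, since 3 of the 83 smooth muscle-gated nuclei held 63 of its 130 UMIs. In the OVA library 3 of 109 held 32 of 156. The intervals leave out this spread between nuclei. In alveolar fibroblast-gated nuclei Nlgn1 was at 12.7 and 6.21 CPM. Nlgn2, a neuroligin of inhibitory synapses, was instead near the same level in the 4 stromal gates, from 84.7 to 120 CPM for PBS and from 109 to 140 CPM for OVA. Their intervals overlapped in both libraries.

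Csmd1 followed Nlgn1. It had 977 CPM (853 to 1113, 224 UMIs) and 969 CPM (874 to 1071, 381 UMIs) in myofibroblast-gated nuclei, and 1065 CPM (879.5 to 1279) and 755 CPM (639 to 887) in smooth muscle-gated nuclei. Its alveolar fibroblast levels were 8.47 and 3.11 CPM, from 4 and 5 UMIs. The order of the smooth muscle and myofibroblast gates was unresolved in the PBS library (0.13, -0.21 to 0.46) and favoured the myofibroblast gate in the OVA library (0.36, 0.08 to 0.64). In the smooth muscle gate 63 of 115 and 40 of 149 Csmd1 UMIs lay in 3 nuclei of each library.

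The teneurins differed from each other. Tenm4 was highest in myofibroblast-gated nuclei, at 1203 CPM (1066 to 1354, 276 UMIs) and 1154 CPM (1051 to 1266, 454 UMIs), followed by smooth muscle-gated nuclei at 648 and 654 CPM, and it kept 112 and 95.7 CPM in alveolar fibroblast-gated nuclei. Of the 4 larger stromal gates Tenm3 was highest in smooth muscle-gated nuclei, at 176 CPM (106 to 275) and 218 CPM (158 to 294), but its interval overlapped that of the next gate in both libraries. In myofibroblast-gated nuclei it stood at 109 CPM (70.5 to 161, 25 UMIs) for PBS and 20.3 CPM (8.78 to 40.1, 8 UMIs) for OVA.

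The cadherins differed as well. Cdh4 (R-cadherin) had 547 CPM (416 to 705) and 471 CPM (380 to 577) in smooth muscle-gated nuclei and 362 CPM (288 to 449) and 300 CPM (248 to 359) in myofibroblast-gated nuclei, and only 1 UMI per library in 464 and 774 alveolar fibroblast-gated nuclei. Pcdh7 was high in smooth muscle-gated nuclei, with 732 CPM (579 to 912) and 735 CPM (620 to 865), and at 56.7 and 71.2 CPM in myofibroblast-gated nuclei. A non-stromal gate, mast cell or basophil, came second for Pcdh7 in both libraries, at 205 CPM (82.3 to 422) and 137 CPM (74.8 to 230). These levels came from 7 and 14 UMIs in 5 and 10 nuclei. Pcdh9 was at 283 CPM (219 to 361) and 239 CPM (193 to 293) in myofibroblast-gated nuclei and at 106 and 91.3 CPM in alveolar fibroblast-gated nuclei. In the 96 pericyte-gated nuclei of the PBS library neither Cdh4 nor Pcdh9 had a UMI, which allows up to 28.2 CPM each, the level of 3 counts.

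**Figure D1:**
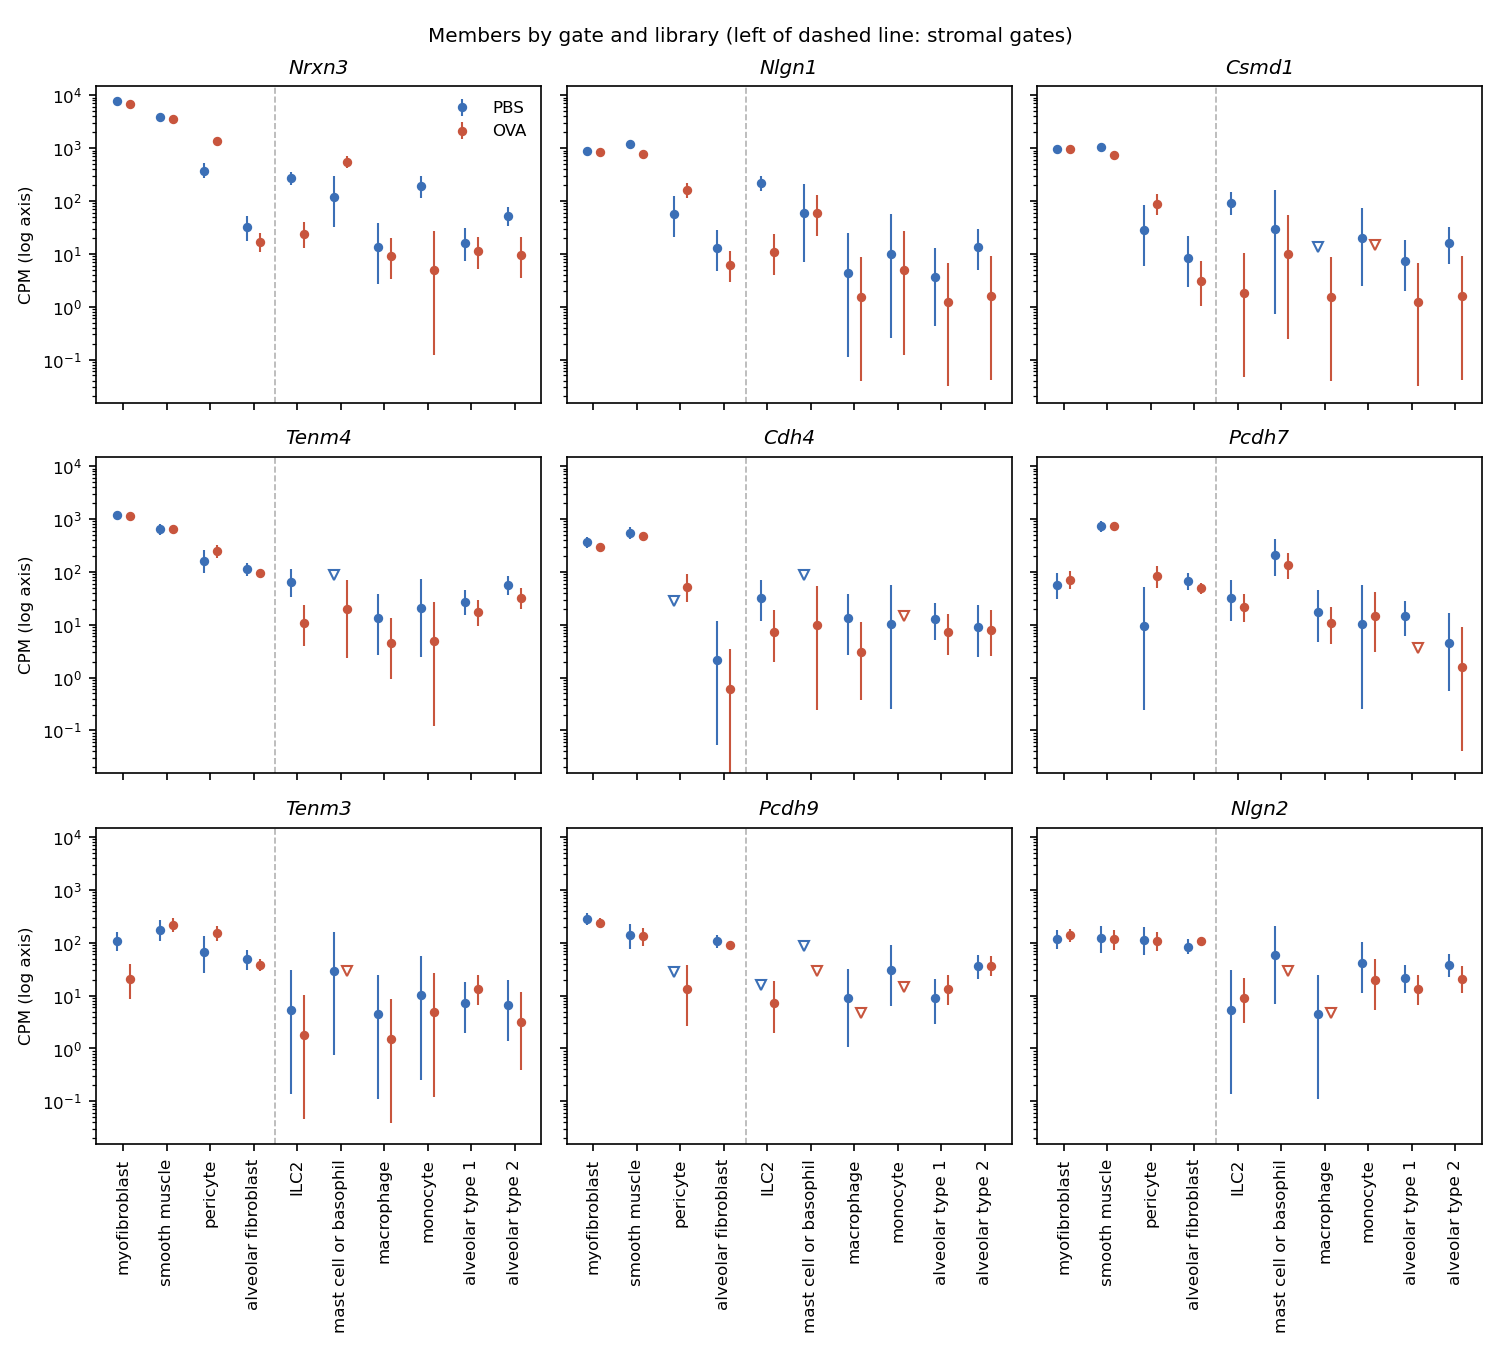
Level of each of the 9 genes (CPM of nuclear-gene UMIs, log axis) in 10 gates, left of the dashed line the 4 stromal gates, for the PBS and OVA libraries. Points are pooled levels, bars are 95% counting intervals and open triangles mark the limit that a count of 0 allows (3 counts); Nrxn3 stood at 7643 and 6702 CPM in myofibroblast-gated nuclei and Nlgn2 was level across the stromal gates.

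Ranked by length, the order of the members changed. Per kb of gene body Nlgn2 had the highest level in myofibroblast-gated nuclei, 8.03 and 9.54 CPM per kb in the PBS and OVA libraries, and Nrxn3 the next, 4.74 and 4.16 CPM per kb. Per kb of exon Nrxn3 was first with 606 and 532 CPM per kb, and Nlgn2 was 7th of 9 with 20.3 and 24.2 CPM per kb.

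Nrxn3 UMIs were spread over most myofibroblast-gated nuclei rather than a few. At least 1 UMI was found in 189 of 243 and 209 of 264 of them, 77.8% and 79.2%. Thinned to 500 UMIs per nucleus, the shares were 78.0% (71.1% to 84.0%, exact binomial, 135 of 173 nuclei) and 74.3% (68.3% to 79.6%, 182 of 245), with 70 and 19 shallower nuclei left out. Macrophages, which should lack the gene, gave 0.51% and 0.25% at the same depth and 1.26% and 0.98% unthinned, with median depths of 807 and 1389.5 nuclear-gene UMIs against 656 and 1259.5 in myofibroblast-gated nuclei. At this depth Tenm4 was found in 35.3% and 36.7% of myofibroblast-gated nuclei, Csmd1 in 28.9% and 27.8% and Nlgn1 in 23.1% and 23.7%, against 45.7% and 58.3%, 35.4% and 43.2%, and 29.6% and 39.8% unthinned. All of these lay above the macrophage shares of at most 0.51%.

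The members were also found together in single nuclei. At 500 UMIs, at least 3 of the 9 genes were detected in 35.8% (28.7% to 43.5%, 62 of 173) and 33.5% (27.6% to 39.8%, 82 of 245) of myofibroblast-gated nuclei and in 36.5% and 28.4% of smooth muscle-gated nuclei. In pericyte-gated nuclei the shares were 4.76% and 7.69%, in alveolar fibroblast-gated nuclei 0 of 347 and 1 of 756 nuclei reached 3 members, and no macrophage did.

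Dividing the gates by cluster separated the 9 genes into groups. Nrxn3, Nlgn1, Csmd1, Tenm4 and Cdh4 were high in the myofibroblast- and smooth muscle-gated nuclei of cluster 12, and low in the smooth muscle-like cluster 18. Pcdh7 and Tenm3 were high in cluster 18, and Pcdh9 was highest in cluster 10. Nlgn2 stood at 152 and 144 CPM in cluster 12, 146 and 149 CPM in cluster 10, and 48.6 and 76.3 CPM in cluster 18, the last from 4 and 10 UMIs. The clustering did not use these 9 genes, but it used other genes of the same nuclei, so these levels too are a description.

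In smooth muscle-gated nuclei of cluster 12 (53 PBS and 62 OVA nuclei) Nrxn3 stood at 6843 CPM (6199 to 7534) and 6467 CPM (5992 to 6969), close to the 9021 and 8529 CPM of myofibroblast-gated nuclei of that cluster. In the 20 and 40 smooth muscle-gated nuclei of cluster 18 it stood at 25.6 CPM (1 UMI) and 267 CPM (166 to 409). The Nrxn3 signal of the smooth muscle gate thus lay in its cluster 12 nuclei, 414 of 418 and 686 of 709 UMIs. Nlgn1 was at 2116 and 1461 CPM in the cluster 12 nuclei of that gate, and had 1 and 0 UMIs in those of cluster 18. For Csmd1 the levels were 1818 and 1386 CPM against 51.1 and 25.5 CPM, and for Cdh4 942 and 839 CPM against 2 and 0 UMIs.

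Pcdh7 ran the other way. It stood at 1432 CPM (1081 to 1859) and 1553 CPM (1290 to 1855) in smooth muscle-gated nuclei of cluster 18, and at 380 CPM (241 to 570) and 217 CPM (137 to 325) in those of cluster 12. Tenm3 had 409 CPM (234 to 664) and 522 CPM (375 to 708) in the former and 49.6 and 18.9 CPM, from 3 and 2 UMIs, in the latter. Both genes were also high in cluster 10, Tenm3 at 528 and 455 CPM and Pcdh7 at 461 and 518 CPM. Pcdh9 was higher there than in any other group shown in the map of clusters, at 809 CPM (682 to 952) and 815 CPM (697 to 947).

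**Figure D2:**
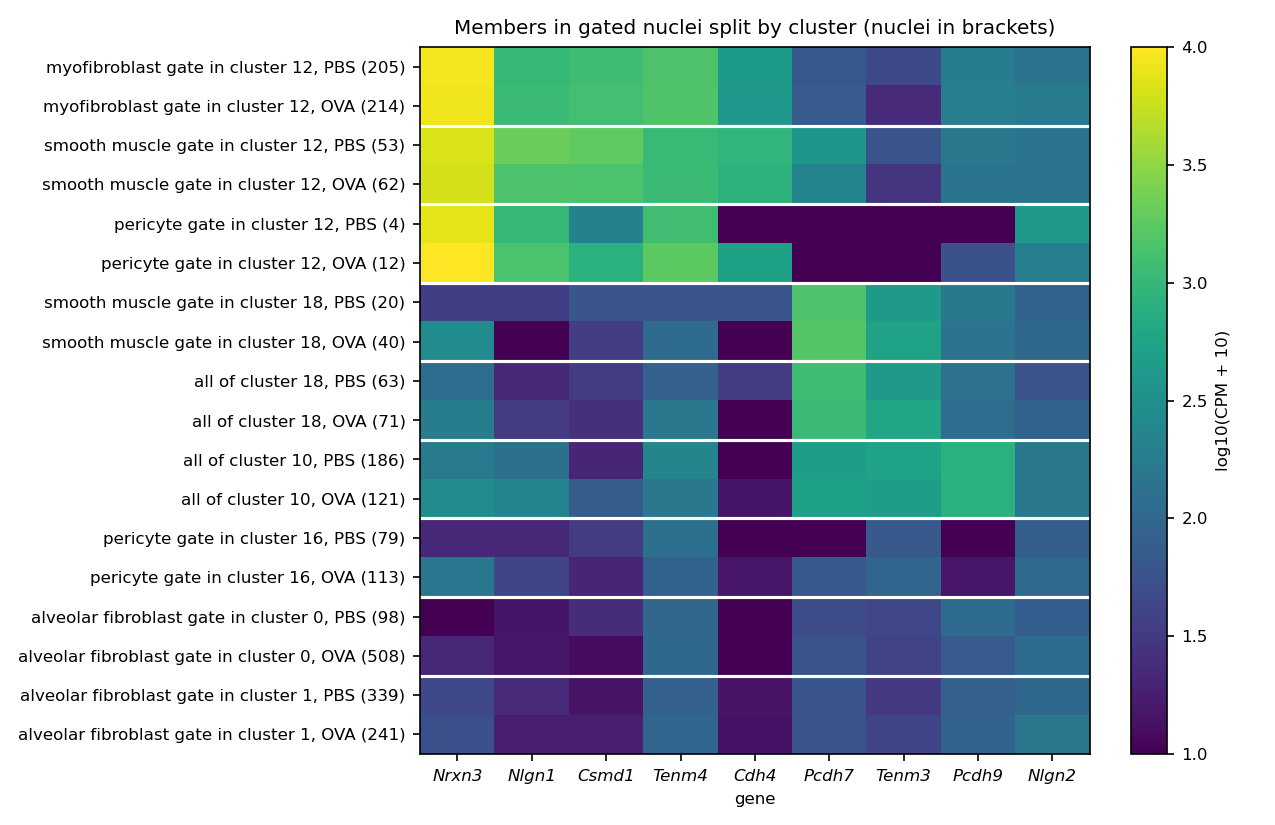
Heat map of log10(CPM + 10) of the 9 genes (columns) in gated nuclei divided by cluster (rows, number of nuclei in brackets), for the PBS and OVA libraries. Nrxn3, Nlgn1, Csmd1, Tenm4 and Cdh4 were bright in cluster 12 in the myofibroblast and smooth muscle gates, Pcdh7 and Tenm3 in clusters 18 and 10, and Pcdh9 in cluster 10.

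Across 10 gates and both libraries (20 points, correlation of log2(CPM + 10)) Nlgn1 and Csmd1 were most alike among members, with Pearson's r of 0.97, and Nrxn3 reached 0.96 with Nlgn1 and 0.94 with Csmd1. Nrxn3 was least like Pcdh9, at 0.54, and reached 0.59 with Nlgn2. Of 8717 genes, those most like Nrxn3 were Enpp2 (0.97), which encodes autotaxin and is itself a marker of the myofibroblast gate, Samd5 (0.95) and Megf10 (0.93), an engulfment receptor. Again outside the members, Enpp2 (0.95), Gypc (0.94) and Zfp536 (0.93) were most like Nlgn1, and Megf10 (0.97), Pdlim3 (0.96) and Lgr6 (0.96), an R-spondin receptor, most like Csmd1. The points share libraries, depth and the same gates, and the values are descriptions.

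Pooled over all stromal gates, the 9 genes were each higher than in non-stromal nuclei. Nrxn3 was at 2389 against 99.7 CPM and 1497 against 54.6 CPM, log2 ratios of 4.58 (4.38 to 4.80) and 4.78 (4.58 to 4.98). Csmd1 followed with 4.10 and 4.58, Nlgn1 with 3.49 and 4.93, Tenm4 with 3.43 and 3.52, and Cdh4 with 3.00 and 3.56. The remaining ratios were 2.74 and 2.78 for Pcdh7, 2.59 and 2.42 for Tenm3, 2.58 and 3.23 for Pcdh9 and 2.04 and 3.14 for Nlgn2. A gene was counted as higher where its ratio was at least 2-fold in both libraries, with at least 100 UMIs over the nuclei compared. This held for 9 of 9 members, as their selection implies, and for 9.64% of 9657 genes. The median over the members was 3.00 and 3.52 on the log2 scale, and that over all genes -0.17 and -0.20. Gene length moved with this count, since 32.7% of the genes of at least 300 kb were higher in stroma, and its part in the members' levels was not tested.

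Within the stroma, 6 of 9 members were at least 2-fold higher in myofibroblast-gated nuclei than in the other stromal nuclei in both libraries, against 4.87% of 5361 genes and 17% of the genes of at least 300 kb. They were Nrxn3 (log2 ratio 3.49 and 3.70), Tenm4 (2.57 and 2.80), Csmd1 (2.48 and 3.53), Nlgn1 (2.07 and 2.93), Cdh4 (2.09 and 2.50) and Pcdh9 (1.47 and 1.24). For Pcdh9, 28 of 65 and 36 of 94 UMIs of the gate lay in its 9 and 14 nuclei of cluster 10. In its cluster 12 nuclei Pcdh9 stood at 176 and 180.5 CPM, against 102 and 101.5 CPM in the other stromal nuclei. With clusters in place of gates the smaller of the log2 ratios of Pcdh9 was 0.022 and 5 members were higher. In that alternative a cluster took the type of most of its gated nuclei, so all of cluster 12 counted as myofibroblast. By gate, Nlgn2 stood at 0.31 (-0.39 to 0.97) and 0.36 (-0.09 to 0.79), Pcdh7 at -1.65 and -0.88, and Tenm3 at 0.41 and -1.97. The selection used this contrast, so nothing is read from the count.

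Alveolar fibroblast-gated nuclei stood at the other end, with 7 of 9 members at least 2-fold lower than in the other stromal nuclei, against 8.41% of genes. The exceptions were Nlgn2 (log2 ratio -0.46 and -0.15) and Pcdh9 (0.563 and 0.501 of the level elsewhere in the stroma), and the lowest log2 ratios were those of Nrxn3 (-7.24 and -7.98) and Cdh4 (-7.18 and -8.72, from 1 UMI in each library). In smooth muscle-gated nuclei 5 of 9 were higher, against 2.82% of genes: Nlgn1, Csmd1, Tenm3, Cdh4 and Pcdh7, the last by 3.36 and 3.43. In pericyte-gated nuclei Csmd1 and Pcdh9 were lower, 2 of 9 against 7.98%.

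**Figure D3:**
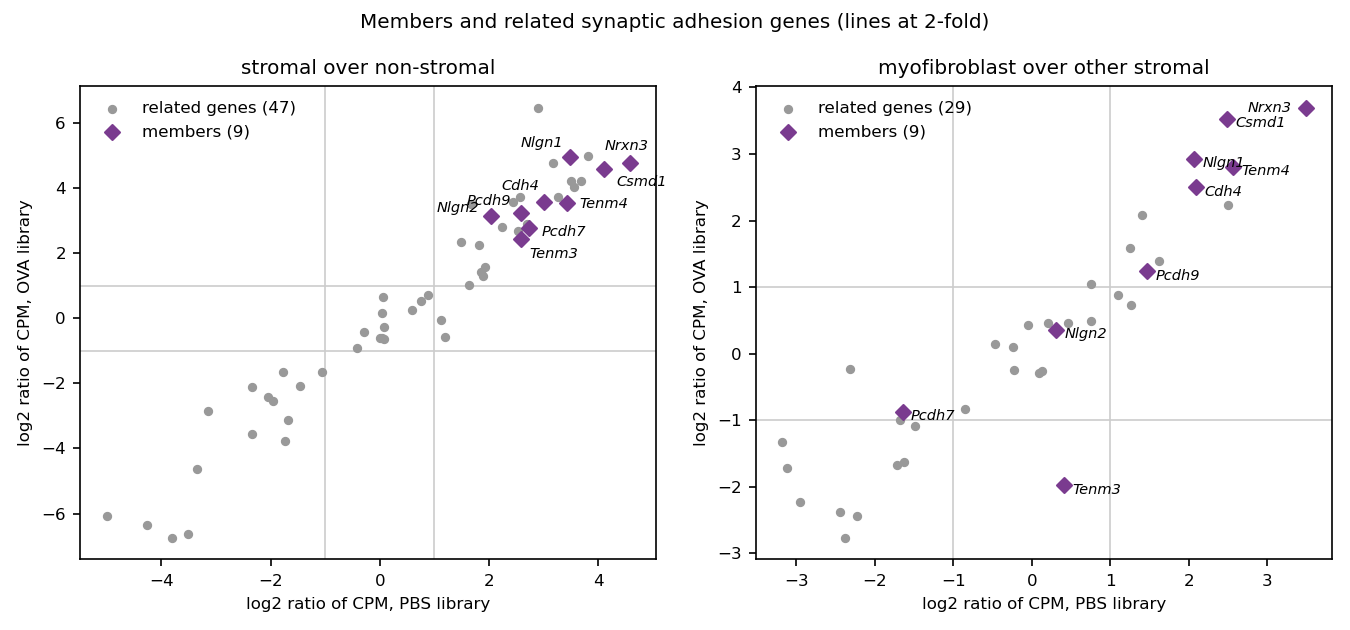
Log2 ratio of CPM in the PBS library (x axis) against that in the OVA library (y axis) for the 9 members (diamonds) and related synaptic adhesion genes (grey), for stromal over non-stromal nuclei (left, 47 related genes) and myofibroblast-gated over other stromal nuclei (right, 29), with grey lines at 2-fold. All 9 members lay in the upper right on the left side. On the right 6 members lay above 2-fold in both libraries, Nlgn2 lay within the lines, and Pcdh7 and Tenm3 lay apart.

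Other synaptic adhesion genes were not uniformly stromal. Of 116 related genes in 8 lists, 47 had enough UMIs, and 19 of these were at least 2-fold higher and 15 at least 2-fold lower in stroma in both libraries. Their medians were 0.60 and 0.17 on the log2 scale. Of all 9657 genes, 931 (9.64%) were higher and 1695 lower by the same rule. Of the neurexins and their partners 3 of 4 were higher, among them Mdga1 (3.49 and 4.21) and Clstn2 (2.70 and 2.90). Of the classical cadherins Cdh11 (3.82 and 4.99), Cdh6 and Cdh2 were higher, while Cdh8 and the epithelial Cdh1 (-3.81 and -6.74) were lower, 3 and 2 of 5.

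Among the teneurins and their partners 1 of 6 was higher, the latrophilin Adgrl3 (1.88 and 1.29), and 2 were lower, Adgrl4 and Flrt3. Of 4 protocadherins Pcdh18 and Pcdh11x were higher and Pcdh17 lower. The receptor phosphatases and their partners had Ptprd (3.68 and 4.22), Ntrk3 and Ptprs higher and Ptprf lower among 6. Of 7 immunoglobulin-type adhesion genes 4 were higher, among them Ncam1 (3.56 and 4.03), Sdk2 and Nrcam, and 3 lower, among them Cadm2 and Cadm1. Of 15 synaptic scaffold genes only 3 were higher, Magi2, Dlg4 and Homer1, while 6 were lower, among them Shank2 and Homer2. Neither of the other 2 CSMD genes had enough UMIs.

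In myofibroblast-gated nuclei most of the related genes were not higher. Against other stromal nuclei 4 of 29 related genes were higher and 10 lower, with medians of -0.24 and -0.25 on the log2 scale. Of all 5361 genes, 261 (4.87%) were higher and 314 lower by the same rule. Lower there were Clstn2 (-2.95 and -2.23), Ptprd (-1.72 and -1.67), Ncam1 (-2.44 and -2.37) and Cdh11 (-1.62 and -1.62). The 4 higher genes, named after their values were seen, were Adgrl1 (1.62 and 1.40), a latrophilin that binds teneurins, Pcdh17 (2.50 and 2.24) and the scaffold genes Magi1 (1.40 and 2.08) and Magi2 (1.25 and 1.59).

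Open chromatin was not used to choose the genes. Within 1 kb of their annotated starts, 3 of 9 members were at least 2-fold more accessible in stromal than in non-stromal nuclei in both libraries, against 6.12% of 18921 genes. Csmd1 had 36 against 19 and 56 against 11 transposition counts, log2 ratios, scaled to the counts in peaks, of 2.22 (1.38 to 3.10) and 3.14 (2.19 to 4.22). Tenm3 had 2.24 and 2.53 and Nlgn1 1.30 and 1.44. Nrxn3, the member with the highest RNA ratio, was at 0.20 (-0.11 to 0.50) and 0.95 (0.65 to 1.24). The other 5 lay between -0.69 and 0.98, and the median over the members was 0.37 and 0.95 against 0.07 and 0.03 over all genes. Between myofibroblast-gated and other stromal nuclei only Csmd1 passed, at 2.05 and 2.59, 1 of 9 members against 0.925% of 16857 genes.

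Start by start, the sites differed within a gene. The first 3 groups of protein-coding Nrxn3 starts, the first promoter printed above among them, had no peak in either library. The fourth, 1018 kb further on at the third promoter, had 101 stromal and 273 non-stromal counts for PBS (log2 ratio -0.14) and 155 and 180 for OVA (0.58). Between myofibroblast-gated and other stromal nuclei this start was at -0.70 (-1.47 to 0.005) and -1.60 (-2.54 to -0.78), while the RNA of the whole gene was higher in myofibroblast-gated nuclei. UMIs were not assigned to single starts, so RNA from this start is not known. Over the starts of all annotated transcripts, non-coding ones included, Nrxn3 had 50 myofibroblast against 84 other stromal counts for PBS. For OVA they were 45 and 162, and the log2 ratios were 0.48 (-0.06 to 1.00) and 0.001 (-0.51 to 0.49). The start at the third promoter thus does not stand for all Nrxn3 starts. At Nlgn1 the first start was more accessible in myofibroblast-gated nuclei (1.497 and 1.209), and the second start, 179 kb further on, was at -0.17 and -0.91. Pcdh9 had its first start more accessible in stroma, by 1.56 and 1.57. A Pcdh9 start 4.93 kb further on was less accessible in stroma, at -3.04 (-4.51 to -1.87) and -3.60 (-5.25 to -2.33).

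Many peaks within the gene bodies were higher in stromal nuclei. Of 101051 peaks that overlapped between the libraries by at least 1 base, 57 lay within members, 52 had at least 20 counts in each library, and 27 of these were at least 2-fold higher in stroma, against 14.5% of 95049 peaks. By gene the counts were 7 of 7 for Tenm3, 5 of 7 for Nrxn3, 8 of 24 for Tenm4, 3 of 6 for Cdh4, 2 of 3 for Nlgn1, 1 of 1 for Csmd1, 1 of 2 for Pcdh9 and 0 of 1 for both Pcdh7 and Nlgn2. Peaks of 1 gene are neighbours on 1 chromosome and were not counted as independent. Between myofibroblast-gated and other stromal nuclei 5 of 38 were higher, against 4.09% of 47442 peaks, and they were 2 in Tenm4 and 1 each in Nlgn1, Csmd1 and Cdh4.

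An intronic peak of Nrxn3 (chr12:89156037-89156930, GRCm38), 434 kb from the 5' end of the gene model, was the most stromal of that gene. It had 135 and 235 stromal counts against 6 and 4 non-stromal counts in the PBS and OVA libraries, log2 ratios of 5.79 and 6.67. In myofibroblast-gated nuclei it stood at 37.9 (29.5 to 47.8) and 36.0 (28.5 to 44.9) counts per 1000000 counts in peaks, against 14.3 (10.2 to 19.6) and 15.2 (12.1 to 18.8) in alveolar fibroblast-gated nuclei. The gates differed far less here than in their Nrxn3 RNA levels. Smooth muscle-gated nuclei had 18.3 and 35.4 and pericyte-gated nuclei 16.9 and 32.7 counts on this scale, and non-stromal nuclei 0.40 and 0.23.

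The next intronic peak of Nrxn3, at 517 kb (chr12:89239522-89240557), was open in the one of the 4 larger stromal gates with the least Nrxn3 RNA. Alveolar fibroblast-gated nuclei had 13.2 (9.26 to 18.3) and 17.7 (14.4 to 21.6) counts on this scale, from 36 and 98 counts. Myofibroblast-gated nuclei had 0 and 5 counts, smooth muscle-gated nuclei 0 and 1, pericyte-gated nuclei 0 and 2 and non-stromal nuclei 2 and 8.

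**Figure D4:**
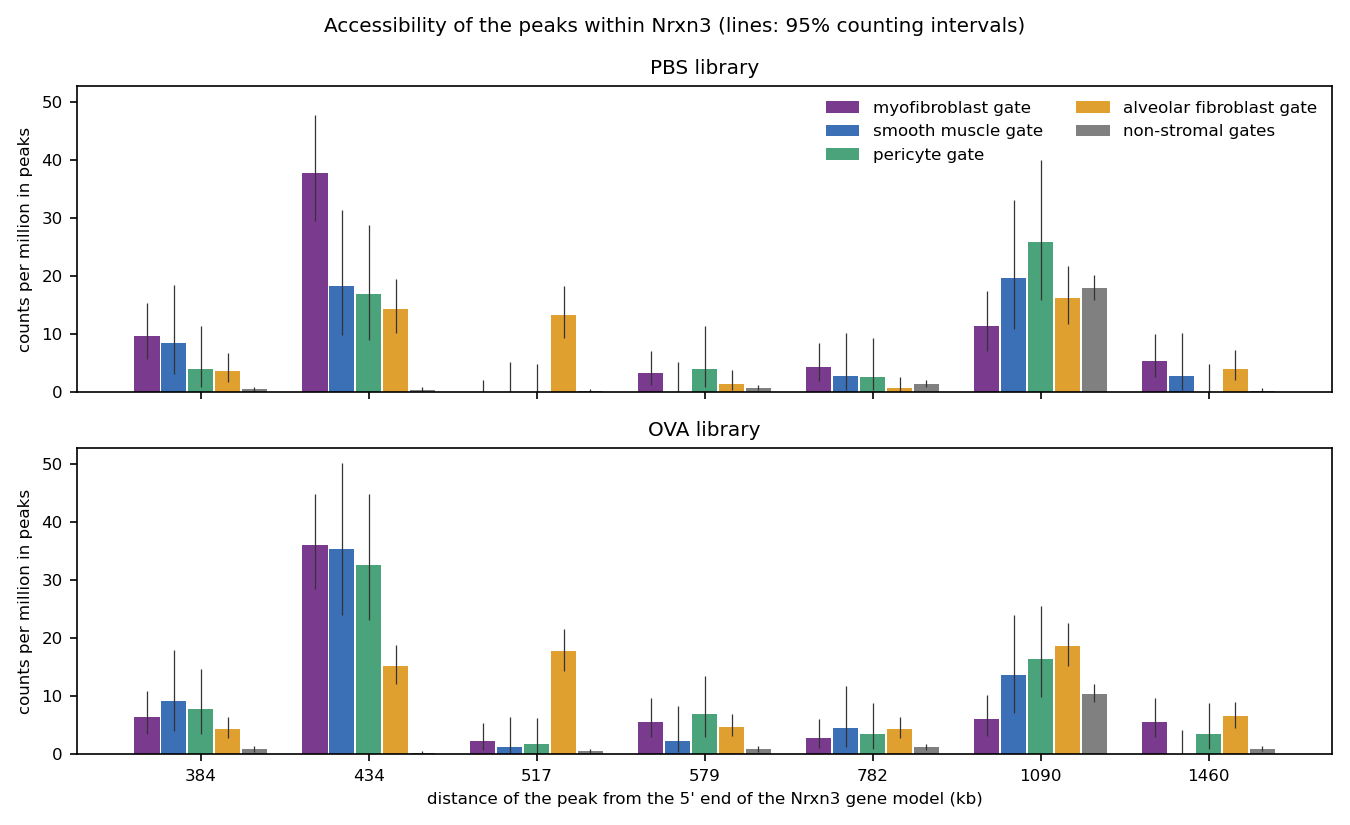
Counts per 1000000 counts in peaks at the 7 shared peaks within Nrxn3, ordered by distance in kb from the 5' end of the gene model, in 4 stromal gates and in non-stromal nuclei, for the PBS library (top) and the OVA library (bottom); lines are 95% counting intervals. The peak at 434 kb was open in all stromal gates and nearly closed elsewhere, and the peak at 517 kb was open in alveolar fibroblast-gated nuclei.

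Tenm4 showed the same contrast between peaks within the gene, picked here from its 25 peaks shared by the libraries. A peak at 404 kb (chr7:96574837-96575912) had 23.8 and 21.2 counts on this scale in myofibroblast-gated and 6.61 and 8.31 in alveolar fibroblast-gated nuclei. A peak at 353 kb (chr7:96523403-96524372) had 2.16 and 4.15 in the former and 15.4 and 17.3 in the latter. An intronic peak of Cdh4 (chr2:179689713-179690951) had 15.1 (10.1 to 21.9) and 11.1 (7.10 to 16.5) in myofibroblast-gated and 0.73 and 1.26 in alveolar fibroblast-gated nuclei, and these are the gates with high and almost no Cdh4 RNA. The peak at the start of Csmd1 (chr8:17534783-17535671) had 12.4 and 16.2 against 2.94 and 1.63. For Tenm3, whose RNA level in alveolar fibroblast-gated nuclei was 48.7 and 38.5 CPM, the peak at 139 kb (chr8:48704266-48705287) had 16.2 and 17.5 in that gate and 3.25 and 3.23 in myofibroblast-gated nuclei.

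Between the OVA and PBS libraries, the members were lower in the OVA library when all stromal nuclei were pooled, and near their PBS levels within the myofibroblast gate. Pooled, 8 of 9 members were below 0, with a median log2 ratio of -0.48, and the median over all genes of at least 100 UMIs was 0.04. The members' median was -0.085 as a mean of single nuclei and -0.81 with at most 20% mitochondrial UMIs. Nrxn3 was at -0.67 (-0.75 to -0.60), Nlgn1 at -0.67, Csmd1 and Cdh4 at -0.73, and Nlgn2 at 0.18 (-0.17 to 0.53). The share of myofibroblast-gated nuclei among stromal nuclei moved with this, 27.0% (243 of 901) and 20.1% (264 of 1311). Alveolar fibroblast-gated nuclei, in which most members were low, made up 51.5% and 59.0% of the stromal nuclei. No member reached 2-fold in this pooled comparison, against 6.43% of the genes with at least 20 UMIs in the nuclei compared, the minimum used for all counts between the libraries.

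Within myofibroblast-gated nuclei the median over the 9 members was -0.06, and that over all genes 0.11. Nrxn3 was at -0.19 (-0.28 to -0.10), or 0.026 as a mean of single nuclei, Nlgn1 at -0.01 (-0.27 to 0.25), Csmd1 at -0.01 (-0.25 to 0.23) and Tenm4 at -0.06 (-0.28 to 0.16). For Nrxn3 the value was -0.08 (-0.17 to 0.01) in the myofibroblast-gated nuclei of cluster 12 and 0.08 (0.01 to 0.15) in all of cluster 12. Tenm3 was the only member at least 2-fold apart in the myofibroblast gate, 1 of 9 against 7.17% of genes, with a log2 ratio of -2.42 (-3.78 to -1.23) from 25 and 8 UMIs. Of the 25 UMIs of the PBS library 18 lay in 9 nuclei of cluster 10. Without the nuclei outside cluster 12 the counts were 7 and 4 UMIs and the ratio -1.46 (-3.68 to 0.51).

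In smooth muscle-gated nuclei the members were at a median of -0.08, with 0 of 9 at 2-fold against 11.6% of genes. Nlgn1 was at -0.61 (-0.95 to -0.26), or 0.11 as a mean of single nuclei, and Csmd1 at -0.50 (-0.86 to -0.13), and within cluster 12 they were at -0.53 (-0.88 to -0.18) and -0.39 (-0.76 to -0.02). For both genes 3 smooth muscle-gated nuclei of the PBS library held many of the UMIs, 63 of 130 for Nlgn1 and 63 of 115 for Csmd1. In alveolar fibroblast-gated nuclei, where 6 members had at least 20 UMIs, the median was -0.28 and none was at 2-fold, against 7.18% of genes. Different clusters held most of this gate in the libraries, since cluster 0 had 98 PBS and 508 OVA nuclei of it and cluster 1 had 339 and 241. Within cluster 0 Pcdh9 was at -0.73 (-1.43 to 0.04) and Nlgn2 at 0.56 (-0.24 to 1.47), and within cluster 1 at 0.07 (-0.95 to 1.11) and 0.69 (-0.13 to 1.54).

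Pericyte-gated nuclei differed, with 5 members 2-fold or more above their PBS level, of the 7 that had at least 20 UMIs, against 12.8% of genes at least 2-fold apart. The count of 5 was 3 with the joint count filter, with 1 more marker for a gate, with at least 30 UMIs or with at most 20% mitochondrial UMIs, and 1 with clusters in place of gates or, chosen after seeing the data, without gated nuclei in a cluster of another type. Nrxn3 was at 1.84 (1.36 to 2.36), Csmd1 at 1.63 (-0.13 to 4.02), Nlgn1 at 1.51 (0.26 to 3.05), Tenm3 at 1.21 (0.02 to 2.63) and Pcdh7 at 3.14 (0.48 to 8.51), the last from 1 and 19 UMIs. Cluster 12 held 4 and 12 of the pericyte-gated nuclei, and those carried 39 of 40 and 278 of 310 Nrxn3 UMIs, with a log2 ratio of 0.71 (0.22 to 1.23). In the 79 and 113 pericyte-gated nuclei of the pericyte-like cluster 16, Nrxn3 had 1 and 26 UMIs (3.59, 0.98 to 8.95), Nlgn1 1 and 6, Csmd1 2 and 2, Tenm3 5 and 16 and Pcdh7 0 and 11.

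**Figure D5:**
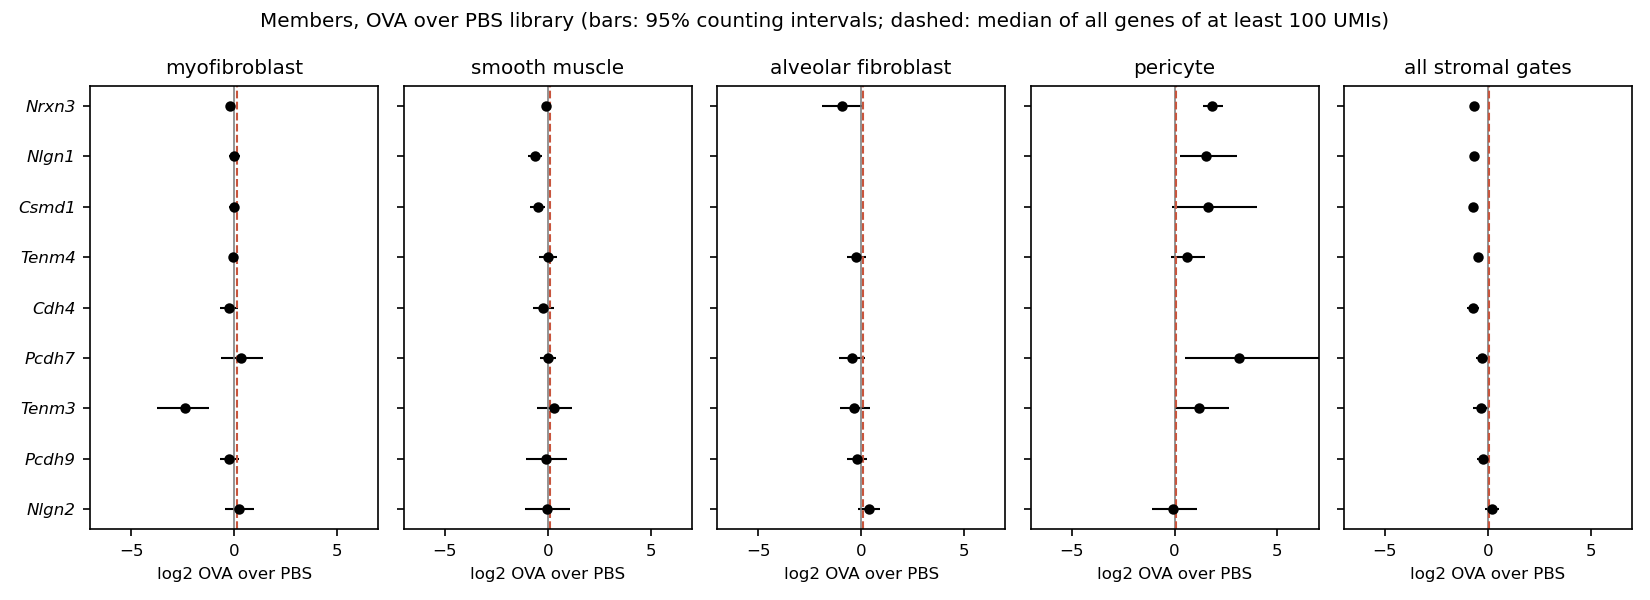
Log2 ratio of CPM in the OVA over the PBS library for the 9 genes in 4 stromal gates and in all stromal gates together; points with at least 20 UMIs are shown, bars are 95% counting intervals (that of Pcdh7 in pericytes runs past the axis) and the dashed line is the median of all genes of at least 100 UMIs. In the myofibroblast gate Tenm3 stood apart at -2.42, and in the pericyte gate 5 genes lay above 1.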

How the data were processed

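Gene expression and chromatin accessibility were measured in the same nuclei of 2 libraries. The authors processed the reads with Cell Ranger ARC 2.0.1 on mm10 and deposited raw counts, UMIs per gene and transposition counts per peak, with peaks called separately in each library. Nuclei needed at least 200 detected genes and no more than 60% mitochondrial UMIs, and those called doublets by a comparison with simulated doublets were removed (6.41% of the PBS and 4.77% of the OVA nuclei). A nucleus passed a gate with at least 2 detected markers of that type, weighted by rarity, and a lead of at least 2 bits over any other type. UMIs were pooled per gate and library and divided by nuclear-gene UMIs. Clusters (Leiden, resolution 1, 30 principal components) were made without members, related genes and mitochondrial genes. Intervals are exact 95% Poisson or binomial intervals and reflect counting error alone. Each group being 1 library, no p-value was computed, and the call rule of at least 2-fold in both libraries was checked on simulated data. Accessibility was scaled to 1000000 counts in peaks of the same nuclei. The named genes were all 9 members, per related list at most 3 higher and 2 lower genes by ratio, and the 3 genes outside the members most like each of Nrxn3, Nlgn1 and Csmd1. A related gene that this rule would name is not reported here. The members, marker lists and related genes were chosen with earlier results of these data known. Python 3.11.15, numpy 2.4.6, scipy 1.17.1, pandas 2.3.3, scikit-learn 1.9.0, scanpy 1.11.5 and matplotlib 3.10.9 were used. Gene positions are from GENCODE M21 and promoters from RefSeq, both on GRCm38. Alternatives in the denominator, weighting, filters, doublets, gates, clusters, count minimum, start window and length scale were computed.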

Additional observations from a re-analysis of the deposited data

Results flagged for a closer look

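Nrxn3, Tenm3 and Nlgn1 moved in opposite directions between the OVA and PBS libraries in different stromal gates, with counting intervals on opposite sides of 0. The difference between the gates was not tested, since each group had 1 library. Nrxn3 had a log2 ratio of 1.84 in pericyte-gated and -0.19 in myofibroblast-gated nuclei. Cluster 12 held 4 PBS and 12 OVA nuclei of the pericyte gate, with 39 and 278 of its Nrxn3 UMIs, and the ratio was 0.71 in these nuclei and 3.59 in those of cluster 16, the latter from 1 and 26 UMIs. The myofibroblast value was 0.026 as a mean of single nuclei and 0.080 with clusters in place of gates, so its sign depended on the setting. Tenm3 had 1.21 in pericyte-gated and -2.42 in myofibroblast-gated nuclei, the latter from 25 and 8 UMIs, of which 18 and 4 lay in nuclei of cluster 10. Nlgn1 had 1.51 in pericyte-gated nuclei, from 6 and 37 UMIs, and -0.61 in smooth muscle-gated nuclei, from 130 and 156 UMIs, the latter 0.11 as a mean of single nuclei. Of those 130 UMIs 63 lay in 3 nuclei.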

How the results depend on the processing

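Of 699 values under an alternative, 607 were labelled as unchanged. A ratio between nuclei types of at least 2-fold had to keep its direction and stay at 2-fold. A smaller ratio counted as unchanged unless it passed 2-fold in its own direction, even where its sign changed. A value between the libraries had to stay within its interval, and a count within 1.5 times. The 9 members stayed at least 2-fold higher in stroma under every alternative run (72 of 72 values, the lowest 1.72 on the log2 scale). The pooled median ratio of OVA over PBS, -0.48, was -0.30 with all UMIs in the denominator, -0.085 with the mean of single nuclei, -0.81 with at most 20% mitochondrial UMIs and -0.68 with the joint count filter. The number of members higher in the OVA library over 4 gates, 5, fell to 3 with the joint count filter, with 1 more marker for a gate and with at least 30 UMIs. It was 1 with clusters in place of gates, and 2 when gated nuclei in a cluster of another type were left out, an alternative chosen after seeing the data. Nrxn3 in the myofibroblast gate turned from -0.19 to 0.026 with the mean of single nuclei and to 0.080 with clusters, and Nlgn1 in the smooth muscle gate from -0.61 to 0.11 with the mean of single nuclei. The cause was not tested. Per kb of exon, Nrxn3 ranked 1 in place of 2 and Nlgn2 7 in place of 1. No paired analysis was possible because PBS and OVA were single libraries, and for the same reason no replicate could be left out. Depth limits the members with few UMIs, of which Tenm3 (515 over all kept nuclei) and Cdh4 (563) had the fewest.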
